A study of Mus musculus with 4 samples.

Results

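Cycling mesenchymal cells of the mouse digit tip were read from single-cell RNA-Seq of the distal hind digits of female C57BL/6 mice (C57BL/6J in the study's methods) aged 6 to 8 weeks. A barcode was a member when it carried at least 1 UMI (a counted RNA molecule) of Pdgfra, the PDGF receptor that marks fibroblastic mesenchyme, and at least 1 UMI in 3 or more of the 5 matrix genes Col1a1, Col1a2, Dcn, Lum and Col3a1. It also had to carry at least 1 UMI in 2 or more of the 3 cell cycle genes Mki67, Top2a and Cenpf, and Krt5 plus Krt14, the basal keratins, had to stay under 0.5% of its UMIs. Barcodes were considered when they held 200 to 5500 genes, no more than 30000 UMIs and no more than 10% mitochondrial UMIs. Members were thus chosen by the measured UMIs of these genes, whose levels are given only as a description. The rule gave 460 members among 16721 mesenchymal barcodes, which meet the same rule without the cell cycle genes, and 93602 barcodes in all.

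The series holds 4 libraries in 2 experiments, each a pool of digits from 10 mice and each its own batch in the labels. In the first, mice ate chow with 30 mg/kg SAR131675, an inhibitor of the lymphangiogenic receptor VEGFR3, or a control diet. The submitters' design text gives 8 days of this diet, whereas the study's methods start it before amputation and keep it to the end, and the sources also differ on the day of collection, so neither time is settled here. In the second, the inguinal and popliteal lymph nodes of 1 hindlimb were removed (LNR) and the opposite limb of the same animals had a sham operation. All 4 came from hind digits collected after amputation of the distal P3 bone. The study's methods amputate digits 2 and 4 and collect digits 2 to 4, cut proximal to the P3 bone. An unamputated digit may thus be among those pooled. Values below are given in the order SAR131675, control diet, LNR and sham unless a library is named. With 1 library per condition there is no replicate and no test, and 95% intervals (exact binomial for shares, exact Poisson for levels, exact conditional for ratios) cover counting error only. An effect of treatment cannot be told apart from a difference between the libraries.

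Mesenchymal cells build and remodel the collagen matrix of skin, tendon, joint capsule and bone surface, and after digit tip amputation they supply the proliferating tissue from which the tip regrows. A dividing cell first copies its DNA in S phase with helicase, clamp and nucleotide-synthesis proteins, then builds a spindle and separates its chromosomes in G2 and mitosis (G2/M). Mki67 encodes a coat protein of mitotic chromosomes, Top2a the topoisomerase that untangles them, and Cenpf a kinetochore-associated protein. All 3 peak late in the cycle, so the rule favours cells from S phase to mitosis over early G1 cells. It does not place each barcode in a phase, and some members carried few or none of the other G2/M genes counted below. Members are called cycling cells by this rule alone.

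Promoters of cell cycle genes are known for sequence elements that time their transcription, E2F sites in S phase genes, and CCAAT boxes with a cell cycle homology region (CHR) in G2/M genes. The promoters of the genes with most UMIs in members that had an entry, Pcna (the DNA sliding clamp) and Rrm1 (the large ribonucleotide reductase subunit) for S phase and Cks2 (a Cdk-binding subunit) and Prc1 (a spindle midzone crosslinker) for G2/M, are shown from 250 bases before to 50 bases after the start site, 5′ to 3′, from RefSeq on GRCm38.p6. Capitals mark CCAAT on either strand, and in Prc1 also TTTGAA, the CHR letters. Pcna lies at chr2:132253131-132253430 (minus strand), Rrm1 at chr7:102441445-102441744 (plus strand), Cks2 at chr13:51644982-51645281 (plus strand) and Prc1 at chr7:80294201-80294500 (plus strand).
Pcna: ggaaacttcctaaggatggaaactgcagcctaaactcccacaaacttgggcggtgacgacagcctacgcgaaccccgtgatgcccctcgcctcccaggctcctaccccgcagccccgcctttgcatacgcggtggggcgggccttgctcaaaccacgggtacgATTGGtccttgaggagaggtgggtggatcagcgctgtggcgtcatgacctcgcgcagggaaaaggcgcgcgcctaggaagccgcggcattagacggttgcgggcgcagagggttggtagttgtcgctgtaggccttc
Rrm1: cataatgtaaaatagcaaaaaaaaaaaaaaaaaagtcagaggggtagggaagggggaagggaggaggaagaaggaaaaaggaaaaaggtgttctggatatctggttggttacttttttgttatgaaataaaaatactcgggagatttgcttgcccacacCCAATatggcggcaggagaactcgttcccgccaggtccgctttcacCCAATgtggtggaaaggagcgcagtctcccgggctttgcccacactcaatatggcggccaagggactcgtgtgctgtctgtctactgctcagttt
Cks2: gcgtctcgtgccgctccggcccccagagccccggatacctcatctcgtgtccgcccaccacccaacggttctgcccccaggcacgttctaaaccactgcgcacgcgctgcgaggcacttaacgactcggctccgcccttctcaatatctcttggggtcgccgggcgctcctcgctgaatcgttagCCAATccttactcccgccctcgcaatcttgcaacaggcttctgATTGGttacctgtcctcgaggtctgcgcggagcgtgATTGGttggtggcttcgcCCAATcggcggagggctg
Prc1: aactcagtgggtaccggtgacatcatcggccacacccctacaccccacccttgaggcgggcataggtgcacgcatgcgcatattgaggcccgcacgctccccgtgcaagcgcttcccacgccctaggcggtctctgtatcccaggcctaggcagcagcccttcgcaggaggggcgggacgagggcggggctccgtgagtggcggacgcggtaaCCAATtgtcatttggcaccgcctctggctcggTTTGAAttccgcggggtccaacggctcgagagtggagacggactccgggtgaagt

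The Prc1 promoter held 1 CCAAT, 37 bases before the start site, and 1 CHR, 5 bases before it. The Cks2 promoter held 4 CCAAT matches and no CHR. Of the letters searched, Pcna and Rrm1 held CCAAT alone, once and 2 times. Forms of the E2F site other than the letters given below were not searched. Over the 43 genes of the G2/M list, 35 had an entry, and 26 of these (74.3%) held TTTGAA on either strand, against 20.2% of all 27025 genes with an entry. CCAAT was held by 28 (80%) against 41.1%, and both by 23 (65.7%) against 7.97%. The E2F letters TTTCCCGC or TTTGGCGC were in 0 of them and in 1.80% of all, too low a background for 35 genes to show a lack. No match overlapped another in the promoters shown. For the S phase list, 25 of 32 genes (78.1%) had an entry, under the 80% asked of a list here, so its shares are void and not given. A match describes the letters and is no evidence of binding.

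Most barcodes that met the rule also carried RNA of other cell classes, to an extent that differed between libraries. Dsp, Perp, Sfn, Epcam, Cdh1, Trp63 and Lgals7 are keratinocyte and epithelial genes outside the rule. Of the members, 53, 22, 59 and 176 (53, 44.9, 59.6 and 83.02%) carried 4 or more of these 7. Of mesenchymal barcodes with no UMI of the 3 cell cycle genes, 9.64, 5.41, 7.69 and 9.42% did so. At least 2 genes of each of 2 or more other classes (endothelial, leukocyte, mural, Schwann cell or melanocyte) were found in 1, 1, 6 and 93 members. These were 1, 2.04, 6.06 and 43.9% of members, beside 1.04, 0.622, 1.18 and 1.01% of those other mesenchymal barcodes. Only 1 Pdgfra UMI stood behind 29, 10, 25 and 110 of the members (29, 20.4, 25.3 and 51.9%). Among the other mesenchymal barcodes this held for 15.5, 15.03, 32.9 and 33.4%, so in LNR the members lay below them. None of these shares was matched for depth.

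The sham library stood apart. Its members had a median of 0.336% Krt5 plus Krt14 UMIs, near the limit of the rule, against 0.0237%, 0.0263% and 0.104% in the other 3 libraries. The 5 matrix genes made up a median of 1.55, 1.86, 1.29 and 0.494% of members' UMIs, lowest in sham, and 2.47, 2.37, 2.72 and 2.64% in mesenchymal barcodes with no UMI of the 3 cell cycle genes. Barcodes with at least 0.25% of these keratins and under 1% of matrix UMIs made up 10 of 100, 5 of 49, 19 of 99 and 130 of 212 members. Keratinocyte list genes summed to 6395, 3715, 8039.5 and 20235.5 CPM (UMIs per 1000000 summed UMIs) in members and 1601, 1230.4, 3904 and 4871 CPM in non-cycling mesenchymal cells. The same rule without the keratin limit was met by 5 of 1360, 8 of 1066, 30 of 856 and 33 of 1045 cycling barcodes with 1% or more of Krt5 plus Krt14. No caller of doublets (barcodes that hold 2 cells) was run.

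Results are therefore given mainly for single-class members, beside the values for all members where these differ. Single-class members had fewer than 2 detected genes of each of the 4 other-class lists, under 0.1% of Krt5 plus Krt14 and fewer than 4 of the 7 keratinocyte genes, limits that were set after the values had been seen. The limits on detected genes were not matched for depth. There were 40, 20, 28 and 26 single-class members, and 60, 29, 71 and 186 members (here called mixed) did not meet these limits. Single-class non-cycling mesenchymal cells numbered 2754, 2625, 3618 and 3240. In single-class members the matrix genes reached 2.94, 3.01, 2.62 and 3.27% of UMIs at the median, beside 2.60, 2.45, 3.002 and 2.94% in single-class non-cycling cells, the keratinocyte list summed to 609, 494, 307 and 254 CPM beside 624, 412, 409 and 459 CPM, and the leukocyte and endothelial lists to at most 15.4 and 50.2 CPM. The keratinocyte, leukocyte and endothelial sums are held low by the definition of these members and are no check of it.

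**Figure D1:**
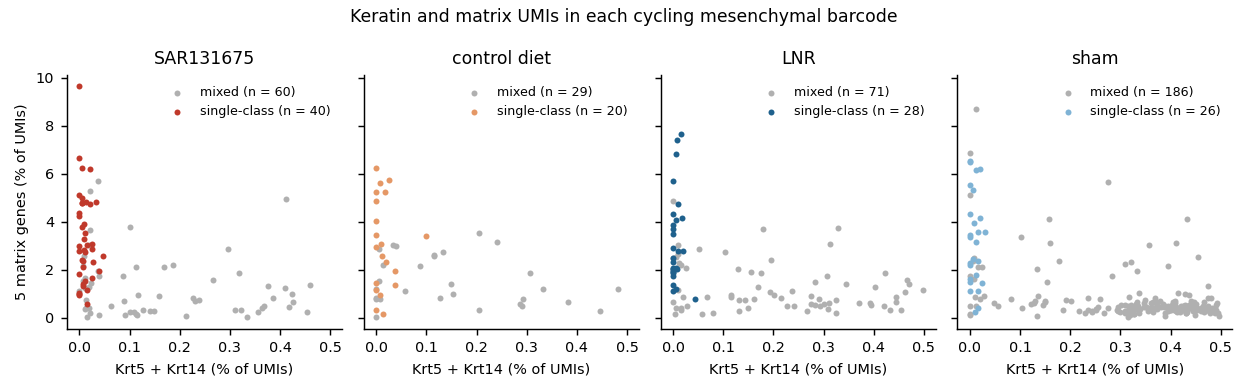
Share of UMIs from Krt5 plus Krt14 (x axis, %) and from the 5 matrix genes (y axis, %) in every member, 1 point a barcode, 1 panel a library. Grey points are mixed members and coloured points single-class members. In the sham panel 130 of 212 points lie at or above 0.25% keratin and under 1% matrix, while single-class members lie under 0.1% keratin by their definition.

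Members of the 4 libraries had similar depth. Members had a median of 13422.5, 11562, 14496 and 15807 UMIs, single-class members 13977.5, 10772.5, 11503.5 and 9367.5, and non-cycling mesenchymal cells 10744, 9757.5, 4558 and 4458, so in LNR and sham the members were deeper than the cells around them. Total UMIs per library ranged from 168507188 to 585284877. Kept barcodes shared by sequence between the libraries of a pair numbered 210 for SAR131675 and control diet (0.874% of the smaller library) and 101 for LNR and sham (0.509%), and no member was shared as a member. Between libraries of different experiments only 0 to 2 kept barcodes were shared. Whether the experiments used the same set of barcodes was not tested. Upper limits on genes and UMIs removed a further 194, 73, 24 and 32 barcodes that met the other conditions of membership, of which 21, 12, 5 and 0 were single-class.

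The genes of the rule are given as a description. Mki67 stood at 419, 464, 341 and 222 CPM in all members and 425, 608, 446 and 389 CPM in single-class members, Top2a at 442, 476, 729 and 659 CPM and Cenpf at 315, 416, 325 and 620.3 CPM in single-class members, and all 3 at 0 in non-cycling cells by construction. Pdgfra, the receptor, stood at 464, 595, 389.6 and 347 CPM in single-class members and 512, 579.9, 581 and 603 CPM in single-class non-cycling cells. Col1a1, the main chain of type I collagen, stood at 11402.5, 10290.4, 9913 and 9447 CPM in single-class members against 3913, 3052, 3548 and 3832 CPM, higher in 4 of 4 libraries. Dcn, the small proteoglycan decorin, stood at 6281, 6686, 4890.3 and 2524 CPM against 14371.5, 15913, 16566 and 16658 CPM, lower in 4 of 4.

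Members with exactly 2 of the 3 cell cycle genes carried a median of 3, 4, 4 and 4 UMIs of them, and mesenchymal cells just outside the rule, with exactly 1, carried 1 in each library. The G2/M list, which leaves out the rule's genes, summed to 1240.3, 1168, 1699 and 1632 CPM just inside and 219, 205, 299 and 428 CPM just outside. At the keratin limit, 7, 2, 11 and 71 members held 0.4 to 0.5% keratin and 9, 3, 15 and 44 cycling barcodes just beyond it held 0.5 to 0.6%, and both groups carried a median of 6 or 7 of the 7 keratinocyte genes.

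Barcodes that met the cycling rule were a small share of the mesenchyme. Among all mesenchymal barcodes the share of members was 2.49% (2.03 to 3.02%) in the SAR131675 library, 1.41% (1.05 to 1.86%) in control diet, 2.08% (1.69 to 2.52%) in LNR and 4.75% (4.14 to 5.41%) in sham. Among single-class barcodes it was 1.31% (0.935 to 1.78%), 0.718% (0.439 to 1.11%), 0.748% (0.498 to 1.08%) and 0.778% (0.509 to 1.14%). The sham library, highest among all barcodes under these limits, lay within the intervals of control diet and LNR when single-class barcodes were counted. Other limits moved the shares of all barcodes. They were 6.17%, 3.17%, 2.54% and 5.38% with no upper limit on genes or UMIs and 11.7%, 7.46%, 6.09% and 8.76% with 1 cell cycle gene asked for, and under both of these SAR131675 was highest. With every cell thinned to 2000 UMIs they were 0.967%, 0.416%, 0.821% and 1.20%, and with all 3 cell cycle genes asked for 1.19%, 0.576%, 1.24% and 2.82%. A keratin limit of 0.2% gave 1.99%, 1.12%, 1.41% and 1.504%, with SAR131675 highest again, and no keratin limit 3.04%, 2.11%, 3.55% and 7.23%. Single-class shares were 1.92%, 1.13%, 0.879% and 0.777% with no upper limit and 0.468%, 0.222%, 0.323% and 0.366% when thinned. The share among barcodes that did not meet the single-class limits was 6.26%, 4.21%, 6.96% and 16.5%, and among basal keratinocytes (no Pdgfra UMI, Krt5 plus Krt14 at 1% or more) it was 22.9%, 21.5%, 25.5% and 26.3%.

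The log2 ratio of the SAR131675 share to the control diet share was 0.82 (0.31 to 1.34) over all mesenchymal barcodes and 0.86 (0.055 to 1.72) over single-class barcodes. It was positive under each alternative that gave a value, from 0.53 to 1.22, with an interval that excluded 0 in each of them except when single-class cells were also thinned to 2000 UMIs each, 1.07 (-0.40 to 2.74). Over mixed barcodes alone, which are not among these alternatives, it was 0.57 (-0.091 to 1.26), an interval that holds 0. The single-class difference rests on 40 and 20 barcodes. Under the strictest limit, which left out any barcode with 2 genes of the keratinocyte, endothelial, leukocyte, mural or Schwann cell and melanocyte lists, 0 of 237, 3 of 726, 10 of 2199 and 8 of 1842 mesenchymal barcodes were members. These were kept out of 4019, 3473, 4763 and 4466. The limit counts detected genes and was not matched for depth, which was greater in mesenchymal cells of the diet libraries. The SAR131675 library then had none, with an exact upper limit of 1.54% of barcodes, and gave no ratio. For LNR against sham the ratio was -1.19 (-1.55 to -0.84) over all barcodes and -0.057 (-0.88 to 0.77) over single-class barcodes. It was -0.18 (-1.53 to 1.17) over thinned single-class barcodes and 0.066 (-1.43 to 1.61) under the strictest limit, intervals that hold the value over all barcodes. As a background for the detection of 2 cell cycle genes, barcodes with haemoglobin at 50% or more of UMIs had 0 of 76 in SAR131675, which by its exact upper limit allows a share of up to 4.74%, and 0 of 45 in control diet, up to 7.87%, at medians of 2961.5 and 3189 UMIs. LNR and sham held 2 and 1 such barcodes, too few for a background. Neutrophil-type barcodes, with S100a8 plus S100a9 at 5% or more of UMIs, carried 2 of the cell cycle genes in 1 of 23, 3 of 17, 7 of 180 and 11 of 164 (4.35%, 17.6%, 3.89% and 6.71%) at medians of 2590, 3168, 1263 and 1316 UMIs, above both mesenchymal shares in each library. Suprabasal keratinocyte barcodes with Krt1 plus Krt10 at 1% or more reached 6.69%, 6.02%, 2.96% and 2.48% at medians of 16973, 16680.5, 11503 and 11078.5 UMIs, above the share over all mesenchymal barcodes in each library but sham and above the single-class share in all 4. Whether cells of these classes cycle was not tested, and the mesenchymal shares, mostly at or below theirs, are shares of barcodes that met the rule and no measure of how many cells cycled.

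**Figure D2:**
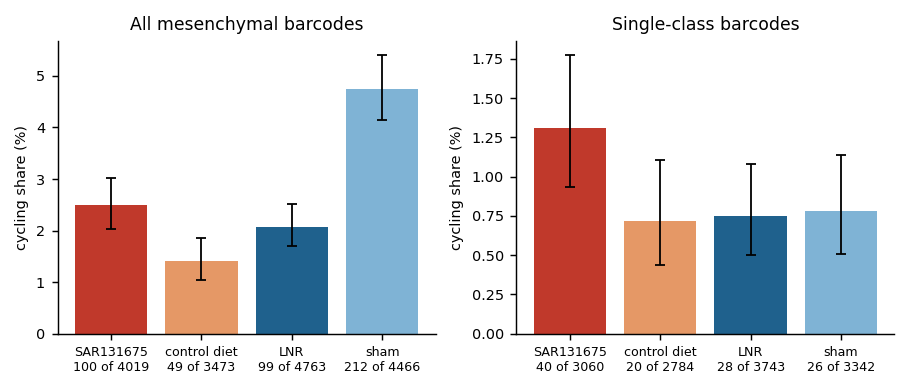
Share of mesenchymal barcodes that met the cycling rule (y axis, %), 1 bar a library with its exact 95% binomial interval, for all barcodes (left) and single-class barcodes (right), with counts under each bar. The sham bar is highest on the left at 4.75% and at 0.78% on the right, beside 0.75% for LNR.

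Summed over members, cell cycle genes that the rule did not name were high in all 4 libraries. Since the same contrast chose the members, the following is a description. A gene was counted when its CPM in members was at least 2-fold above, or below, that of non-cycling mesenchymal cells in each library. Over all members this held for 531 of 10068 genes upward (5.27%) and 108 downward (1.07%), and over single-class cells for 247 of 4931 upward (5.01%) and 48 downward (0.973%). The G2/M list was higher for 38 of 38 genes compared in single-class cells, with a median log2 ratio of 6.56 beside 0.16 over all genes, and for 42 of 43 in all members. The S phase list was higher for 16 of 20 with a median of 3.30, and the chromatin and cytoskeleton list for 11 of 12 with a median of 2.51. The sums do not describe every member. S phase list UMIs per 10000 had medians of 3.70, 4.13, 24.8 and 12.5 over single-class members, with highest values of 54.8, 53.6, 57.6 and 52.9. Of single-class cells outside the members, 1030 of 3020, 1376 of 2764, 8 of 3715 and 13 of 3316 carried at least as many S phase list genes as the median single-class member, 4, 3, 14.5 and 9 genes, a larger part in the diet libraries than in LNR and sham. These counts were not matched for depth.

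Nuf2 and Hmmr were among the 10 genes ranked highest by the library with the smallest change. Nuf2, a subunit of the Ndc80 kinetochore complex, stood at 60.7, 45.7, 47.2 and 50.1 CPM in single-class members and 0.140, 0.0396, 0.0590 and 0.136 CPM in single-class non-cycling cells, log2 ratios of 8.61, 9.66, 9.10 and 8.25. Hmmr, a spindle-associated hyaluronan receptor, stood at 134, 169, 142 and 196 CPM beside 0.839, 0.475, 0.118 and 0.205 CPM. The other 8 were Pimreg, Depdc1a, Melk, Pbk, Neil3, Mxd3, Bub1 and Cdca3, with log2 ratios from 6.82 to 9.96 over genes and libraries, and all 10 had under 2 CPM in non-cycling cells. Over all members 8 of these 10 were again among the first 10, with Kif4 and Pclaf in place of Melk and Cdca3.

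The S phase list lay less far above non-cycling cells than the G2/M list, by the medians given above, and 5 of its genes, picked after their values had been seen, are described here. Rrm2, the regulated subunit of ribonucleotide reductase, had log2 ratios of 4.40, 3.83, 6.06 and 5.62, from 99.3, 59.5, 259.7 and 150.3 CPM in single-class members and 4.72, 4.32, 3.89 and 3.07 CPM in non-cycling ones. Tk1, thymidine kinase, had 5.57, 4.997, 7.48 and 7.40 and Mcm2, a subunit of the replicative helicase, 3.24, 3.31, 4.53 and 4.05. Pcna, whose level in non-cycling cells was 69.7, 60.7, 71.3 and 62.6 CPM, had 1.16, 0.31, 2.07 and 1.90. Rrm1 reached 62.6, 73.2, 236 and 127 CPM in single-class members against 17.8, 20.01, 15.8 and 15.4 CPM. For each of these 5 genes the 2 diet libraries had the lowest ratios, which did not hold for the whole list. Dtl had 4.11, 4.08, 4.25 and 4.09 and Exo1 3.97, 5.96, 7.23 and 4.97. Depth of sequencing and the calling pipeline also differed between the experiments, and their part was not tested.

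Genes of chromatin and of the dividing cytoskeleton were high in the same cells. Stmn1, which destabilises microtubules, stood at 543, 370.5, 694 and 902 CPM in single-class members against 15.5, 10.4, 11.1 and 11.8 CPM, and H2az1, a histone H2A variant, at 1207, 1056, 1791 and 2099.8 against 180, 144, 215 and 207 CPM. Cks2 stood at 197, 206, 345 and 485 against 13.99, 8.60, 13.4 and 12.6 CPM, Prc1 at 261, 466, 354 and 509 against 4.16, 2.73, 2.07 and 1.23 CPM, and Smc4, a condensin subunit with no promoter entry, at 313, 320.1, 339 and 343 against 43.96, 38.5, 24.1 and 23.1 CPM. One control diet barcode held 49.02% of that library's Prc1 UMIs among its 20 single-class members.

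Drivers of G1 and inhibitors of the cycle differed far less. Of 5 G1 genes compared, 1 was at least 2-fold higher in every library and 0 lower, beside 5.01% and 0.973% of all genes, with a median log2 ratio of 0.90. At any size, 3 of the 5 lay higher in all 4 libraries and 1 lower. The one past 2-fold was Ccnd1, the D-type cyclin that drives G1, at 184, 188, 165 and 189 against 58.9, 60.5, 52.5 and 55.3 CPM. Ccnd2, its relative, was the 1 lower, at 103, 50.3, 100.3 and 30.8 against 176, 167, 141 and 138 CPM. Myc, with fewer than 50 UMIs in these members and so not among the 5, stood at 25.8, 36.6, 50.2 and 30.8 against 44.5, 52.8, 114 and 107 CPM. Of 10 inhibitor and quiescence genes compared, 1 was at least 2-fold higher in every library and 0 lower, with a median of -0.40. Counts of 0 or 1 in lists this short are near the shares of all genes. Cdkn1a, which encodes the Cdk inhibitor p21, stood at 204, 183, 162 and 116 against 342, 429, 409.6 and 374 CPM and Gas1, a growth arrest gene, at 495, 800.4, 354 and 327 against 946, 861, 972 and 999 CPM, below non-cycling cells in all 4 libraries. Cdkn2c (p18) was the member higher in all 4, at 73.6, 82.3, 139 and 80.9 against 24.2, 19.02, 18.2 and 17.9 CPM.

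The number of detected G2/M list genes varied widely among members. Among single-class non-cycling cells the highest count of detected G2/M list genes was 12, 6, 8 and 8 of 43. Single-class members above that count numbered 18 of 40, 11 of 20, 24 of 28 and 20 of 26. At or under the 99th percentile of non-cycling cells lay 15, 8, 4 and 1. These counts were not matched for depth. Single-class non-cycling cells had medians of 10263.5, 9402, 4152 and 4085 UMIs, lower in LNR and sham, so the limits are not comparable between the experiments.

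The balance of S phase and G2/M genes rested in part on single barcodes. The log2 ratio of the S phase to the G2/M list UMIs was -1.49 (-1.61 to -1.37) in SAR131675, -2.15 (-2.36 to -1.96) in control diet, -0.88 (-1.002 to -0.77) in LNR and -1.83 (-1.97 to -1.69) in sham for single-class members. Over all members it was -1.54, -1.50, -0.93 and -1.15, and in single-class non-cycling cells 1.14, 1.42, 1.54 and 1.57. The ratio depends on which genes are in the lists, so only differences between groups of cells are read from it. The barcode with most S phase UMIs held 13.01, 45.5, 8.42 and 14.2% of them in single-class members and the one with most G2/M UMIs 17.9, 37.9, 13.2 and 21.6%. Without the first the ratios were -1.63, -2.99, -0.86 and -2.02 and without the second -1.23, -1.56, -0.72 and -1.52. The control diet value moved most. LNR had a larger part of S phase genes than sham under either choice of members, with or without these barcodes. Its values also lay above those of both diet libraries, which were counted with another Cell Ranger version, so that order is only a description. After thinning to 2000 UMIs, more S phase than G2/M UMIs were found in 8 of 39, 4 of 20, 11 of 28 and 6 of 23 single-class members, so the order by cells was not separated at these numbers.

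**Figure D3:**
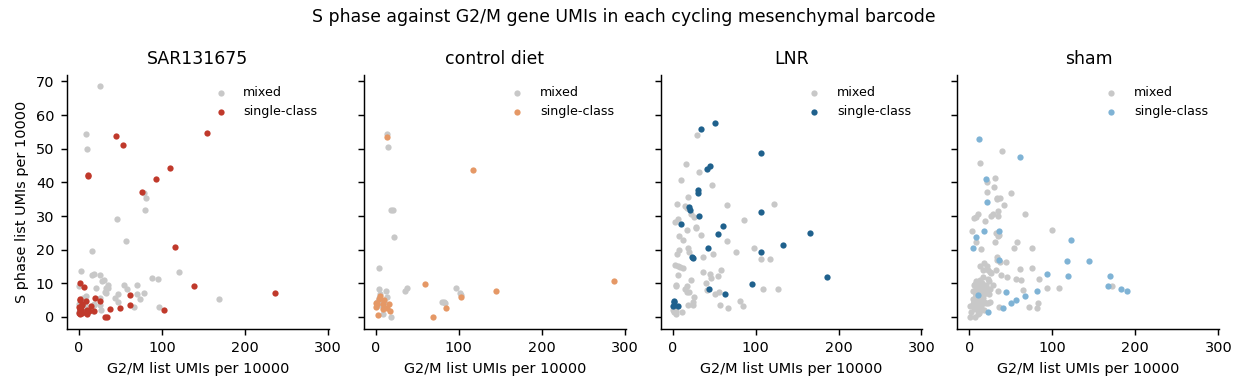
UMIs of the S phase list (y axis) against UMIs of the G2/M list (x axis), both per 10000 UMIs, in each member, 1 panel a library, with mixed members in grey and single-class members in colour. Members spread from high S phase with low G2/M to high G2/M with low S phase, and many points of the SAR131675 and control diet panels lie near the origin.

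Genes of contractile fibroblasts were high in the cycling cells. In single-class cells 6 of 7 contractile fibroblast genes compared were at least 2-fold higher in all 4 libraries (background 5.01%, and no test since membership chose the contrast), with a median log2 ratio of 2.44. Acta2, smooth muscle actin, stood at 412, 558, 333 and 589 CPM in single-class members and 48.6, 45.2, 45.9 and 47.6 CPM in non-cycling cells. Lrrc15, a membrane protein of matrix-producing fibroblasts, stood at 491, 544, 328 and 532 against 106, 83.8, 86.5 and 80.2 CPM, and Tpm2, a tropomyosin, at 184, 128, 354 and 378 against 38.9, 29.04, 55.9 and 47.96 CPM. Tagln (transgelin) and Myl9 (a myosin light chain) had log2 ratios of 1.80, 1.54, 1.23 and 2.55 and 2.24, 2.69, 2.15 and 2.65. In all members the list had 1 of 7 genes past 2-fold and a median of 0.86. One barcode held up to 49.2% of a library's Acta2 UMIs. Mural cells, the smooth muscle cells and pericytes of vessels, also carry contractile genes, and single-class members hold fewer than 2 genes of the mural list by their definition, so their low mural counts are no check. The mural list summed to 123, 219.9, 128 and 185 CPM in all members and 144, 151, 232 and 209.5 CPM in all non-cycling mesenchymal cells, and the part of mural RNA was not tested. It summed to 84.6, 348, 97.4 and 96.3 CPM in single-class members and 66.3, 67.1, 104 and 99.4 CPM in single-class non-cycling cells, with the control diet value led by Rgs5, whose 64 UMIs were in 1 barcode.

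Matrix genes lay both above and below non-cycling cells in single-class members. The extracellular matrix list, without the rule's collagens, summed to 31292, 26961, 27447 and 24998 CPM in single-class members and 33438, 34112, 33763 and 33599.7 CPM in non-cycling cells, and 4 of 38 genes compared were higher and 3 lower in all 4 libraries, beside 5.01% and 0.973% of all genes. Over all members 0 of 39 were higher and 4 lower, 20 lay lower in all 4 libraries at any size, and the list summed to 21622, 21972, 15737 and 9074 CPM against 31907, 32815, 28647 and 27854 CPM in all non-cycling mesenchymal cells. The collagen genes Col6a3, Col12a1 and Col11a1, of types VI, XII and XI, and the fibrillin Fbn2 were the higher ones. Col12a1 stood at 648, 727, 593 and 663 against 241, 214, 146 and 148 CPM and Col11a1 at 883, 764, 309.9 and 551 against 186, 117, 72.3 and 80.2 CPM. Gsn (gelsolin), Mfap4 (a microfibril-associated protein) and Fbln1 (fibulin) were the lower ones, Gsn at 5629.5, 3860.1, 2709 and 2558 against 13484, 15193, 15697 and 15454 CPM. Sparc, a collagen-binding protein, lay higher, at 8726, 8447, 6375 and 6269 against 4466, 3761, 3930.3 and 4397 CPM, without reaching 2-fold in every library. Acan, which encodes the large proteoglycan aggrecan, stood at 164, 192, 124 and 139 against 21.8, 15.1, 17.1 and 14.9 CPM, while Col2a1, the cartilage collagen, had no UMI in members and Sox9 lay below non-cycling cells with log2 ratios of -0.46, -0.91, -0.81 and -1.78.

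The 10 genes lowest in cycling against non-cycling single-class cells were Myoc, Cebpd, Cxcl12, Mfap4, Apoe, Hpse2, Aldh3a1, Tshz2, Serping1 and Ccn3. Myoc, which encodes myocilin, stood at 118, 146, 162 and 96.3 against 767, 886, 1179.6 and 1179.8 CPM and Cebpd, a transcription factor of stress and differentiation, at 66.2, 68.6, 133 and 119 against 225, 301, 795 and 805 CPM. Cxcl12, a chemokine of stromal niches, stood at 309, 265, 452 and 208 against 1088, 978, 1439 and 1345 CPM. Apoe was low in single-class members, at 105, 86.9, 221 and 69.4 against 311, 303, 826 and 784 CPM, and not in all members, at 302, 364, 1168 and 1814 CPM, where basal keratinocytes in cycle carried 1179, 1415, 2599.8 and 2568 CPM. Over all members the 10 lowest were other genes, Coch, Scg3, C4b, Igf1, Cntn1, C3, Bglap, Spock2, Cfb and Ifi205, of which C3, C4b and Cfb belong to the complement system. Igf1 stood at 202, 288, 127 and 216 CPM in single-class members against 600.1, 644, 539 and 535 CPM.

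All but 1 of the 5 adventitial fibroblast genes compared lay below non-cycling cells in each library, with a median of -1.91. Lower by 2-fold in all 4 was 1, Ly6a (Sca-1), beside 0.973% of all genes, a count too small to read for the list. Ly6a stood at 633, 553, 555 and 559 against 1403, 1286, 1635 and 1655 CPM, Clec3b (tetranectin) at 522, 238, 289 and 231 against 1040.2, 1034, 1435 and 1487 CPM and Cd34 at 267, 224, 133 and 135 against 500.1, 621, 686 and 699 CPM. Pi16, the peptidase inhibitor that marks these cells, was spread unevenly, at 285, 677, 32.5 and 162 against 858, 882, 1194 and 1165 CPM, with 72.3% of the control diet UMIs in 1 barcode. Immediate early and dissociation stress genes had 3 of 14 past 2-fold lower in all libraries, beside the same 0.973%, and 12 lower in all 4 at any size, with a median of -1.22. Fos stood at 410.3, 320.1, 1594 and 1094 against 1077, 1141, 2759.9 and 2582 CPM and Egr1 at 263, 160.1, 555 and 432 against 688, 633, 1448 and 1399.7 CPM. The stress list also differed between experiments in non-cycling cells, at 6916, 7487, 11715 and 10974 CPM, and the part of tissue handling was not tested.

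Other gene lists are given by their counts past 2-fold in all 4 libraries, to be read beside the 5.01% of all genes higher and 0.973% lower. In lists this short a count of 0 or 1 is near that background and says nothing of the list. Of growth factor ligands and receptors 0 of 27 compared were higher and 1 (Igf1) lower, with a median of -0.48. Wnt and BMP response genes had 0 of 9 in either direction, and glycolysis and hypoxia genes 0 of 7. The Wnt and BMP list had a median of -0.65 and the glycolysis list one of 0.65. Id1, a BMP target, stood at 129, 109.8, 204 and 139 against 116, 77.1, 103 and 84.9 CPM. Limb and digit tip genes had 0 of 8 in either direction and a median of -0.23. Of signals to lymphatic vessels, osteoclasts and leukocytes 1 of 9 (Cxcl12) was lower. Vegfc and Vegfd, the ligands of VEGFR3, had 19, 5, 4 and 6 and 11, 9, 4 and 9 UMIs in single-class members, at 20.2, 41.2, 11.8 and 34.7 CPM for Vegfd against 46.5, 47.6, 35.6 and 34.6 CPM in non-cycling cells. Of osteoblast genes 0 of 5 passed in all 4 libraries, although the median was 1.21. Matrix proteases and their inhibitors had 0 of 12 in either direction, tendon genes 0 of 5, synovial genes 0 of 4 and dermal papilla and nail genes 0 of 3. Ptch1, the hedgehog receptor and target, had log2 ratios of 1.40, 2.25, 0.84 and 1.73.

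**Figure D4:**
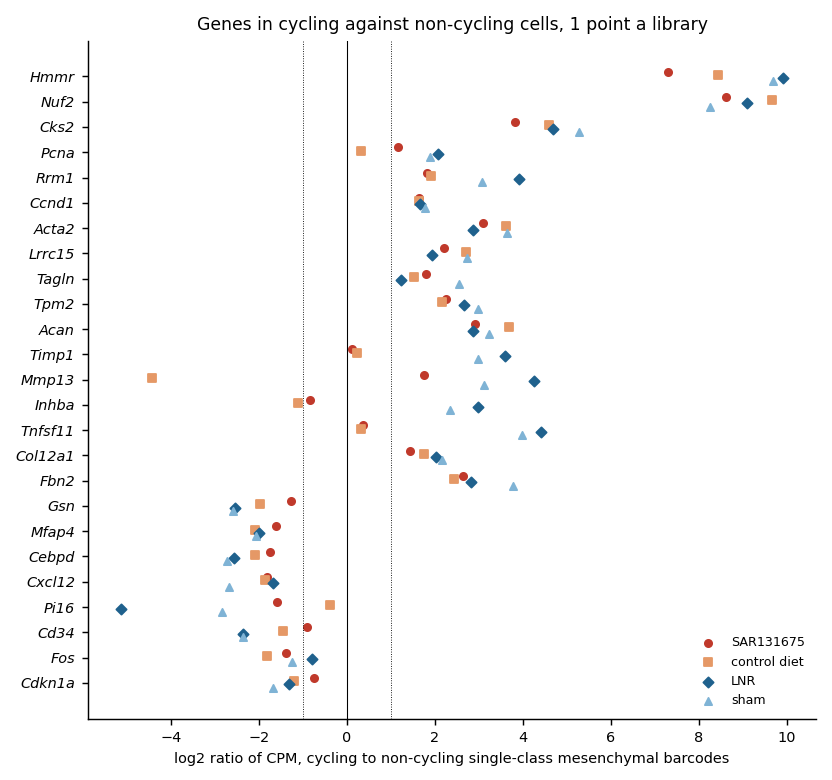
Log2 ratio of CPM in cycling against non-cycling single-class mesenchymal barcodes (x axis), 1 row a gene and 1 point a library, with dotted lines at 2-fold either way. Cell cycle and contractile genes lie to the right in all 4 libraries, Gsn, Mfap4, Cebpd and Cxcl12 to the left, and Timp1, Inhba and Tnfsf11 lie past 2-fold to the right in LNR and sham alone. Control diet has 0 UMIs of Mmp13 and Tnfsf11 in members and SAR131675 has 1 of Tnfsf11, so those points depend on the 0.5 added to each sum.

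Lineage lists placed the cycling cells unevenly over the mesenchyme. Every cell was thinned to 2000 UMIs, cells with at least 2 genes of a list were counted as holding it, and 88, 105, 377 and 367 shallower mesenchymal cells were left out. Of single-class cells that held the contractile list, 4.25, 2.76, 3.13 and 4.95% were members, against 0.817, 0.564, 0.557 and 0.331% of those that did not. Summed over libraries this was 49 of 1275 cells, 3.84% (2.86 to 5.05%), against 0.564%. Cycling basal keratinocytes, which should not be contractile fibroblasts, held the list in 5.31%, 3.17%, 3.93% and 5.27% of the 1319, 1010, 814 and 1006 cells counted. Before thinning, all 1340, 1046, 817 and 1007 of these keratinocytes had medians of 16358, 15523.5, 11040 and 10411 UMIs. Single-class members held the list in 46.2, 30, 39.3 and 60.9%.

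The adventitial list had lower shares of members among its holders. Among holders of the adventitial list 0.928, 0.493, 0.465 and 0.216% were members, against 2.26, 1.48, 1.96 and 2.60% of the rest, and 51.3, 50, 42.9 and 21.7% of members held it beside 72.5, 75.5, 76.6 and 77.6% of non-cycling cells. Osteoblast lineage holders were members in 14 of 630 (2.22%, 1.22 to 3.70%) against 0.837%. By library this was 1.12, 2.01, 3.14 and 2.80% against 1.31, 0.666, 0.709 and 0.664%, lower than the rest in SAR131675 and resting on 2, 3, 5 and 4 members. Holders of the dermal papilla and nail list were members in 32 of 2161 (1.48%, 1.02 to 2.08%) against 0.785%. By library their share was 2.46, 0.896, 0.257 and 1.74%, above the rest in all libraries but LNR. When mixed barcodes were counted too, the order of the summed shares turned, with 73 of 2693 holders (2.71%) against 2.91% of the rest. By library these were 3.78, 1.77, 1.44 and 3.38% against 2.04, 1.36, 2.36 and 5.25%, so that sham alone changed its order. Tendon and synovial lining holders were members in 0.921% and 0.689%, against 0.907% and 0.954%. With mixed barcodes counted too, these were 2.37% and 3.47%, against 2.96% and 2.74%, the opposite order for both lists. None of 58 cartilage holders was a member, an upper limit of 6.16%. With 2 of the 3 cell cycle genes asked for in the thinned counts, the order was the same for the contractile (1.10% against 0.259%) and adventitial lists (0.187% against 0.827%).

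Cycling basal keratinocytes were taken for comparison. Their G2/M list summed to 7932, 7604, 6533 and 6477 CPM beside 4165, 5149.8, 5047 and 7035 CPM in single-class members, and their S phase list to 2879, 2957, 2379 and 2462 beside 1485, 1157, 2733 and 1980.4 CPM. In SAR131675 and control diet both lists were lower in the mesenchymal cells, whereas LNR had a higher S phase sum and sham a higher G2/M sum than keratinocytes. In sham 1 barcode held 21.6% of the G2/M list UMIs of single-class members, so the sham order rests in part on it. Ccnd1 stood at 288, 344, 184 and 182 CPM in the keratinocytes, and Acta2 at 6.08, 3.54, 11.9 and 30.2 CPM. The 2 groups were chosen by Pdgfra, matrix gene and keratin UMIs, so their difference in mesenchymal genes is a description. The limb mesenchyme list summed to 2145, 2021.5, 1181 and 1310 CPM in single-class members and 34.7, 29.3, 32.9 and 24.8 CPM in keratinocytes. Prrx1, a limb mesenchyme homeobox gene, stood at 973, 919, 389.6 and 470.1 CPM beside 959, 903, 654 and 628 CPM in non-cycling mesenchyme and 1.72, 1.05, 5.10 and 2.02 CPM in keratinocytes.

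Timp1 and Inhba were above non-cycling cells by over 2-fold in the single-class members of LNR and sham and in neither diet library. Il11 and Tnfsf11 were above by over 2-fold in LNR and sham, and had 0 or 1 UMI in each diet library, too few for a ratio there. These 4 genes and Mmp13 were picked after their values had been seen. Timp1, a metalloproteinase inhibitor, stood at 84.6, 59.5, 3677 and 1765 CPM in single-class members and 78.7, 52.2, 304 and 224 CPM in non-cycling cells, log2 ratios of 0.12, 0.24, 3.60 and 2.98. Inhba, the activin A subunit, stood at 40.5, 22.9, 729 and 269.7 against 74.3, 54.5, 91.9 and 53.6 CPM, and Il11, a gp130 cytokine, at 0, 4.57, 272 and 80.9 against 3.36, 3.05, 9.68 and 6.55 CPM. Tnfsf11, which encodes the osteoclast-inducing ligand RANKL, stood at 1.84, 0, 133 and 88.6 against 2.13, 1.82, 6.31 and 5.66 CPM, from 1, 0, 45 and 23 UMIs in 1, 0, 9 and 7 barcodes. Mmp13, collagenase 3, stood at 99.3, 0, 3709.8 and 805 against 29.5, 49.3, 193 and 93.3 CPM, and so was over 2-fold higher in members of SAR131675 too, where all 54 UMIs were in 1 barcode. Within each library the ratio compares cells of 1 pool, but the 2 experiments were processed apart, so which difference between them matters cannot be told apart. One barcode held 42.7%, 23.9%, 58.7%, 24.4% and 30.6% of the LNR UMIs of Timp1, Inhba, Il11, Tnfsf11 and Mmp13.

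SAR131675 against control diet, all members, gave 236 of 6470 genes past 2-fold with an interval excluding 0 (3.65%), 115 higher (1.78%) and 121 lower (1.87%), among genes with at least 50 UMIs over the pair. Those lowest in SAR131675 were genes of antigen-presenting cells, Cd74, H2-Ab1, H2-Eb1 and H2-Aa, with the myeloid genes Lyz2, C1qa and Fcer1g and the sebaceous gene Awat1, beside a leukocyte list that summed to 21.6, 546, 303 and 226 CPM in all members and 5.52, 9.15, 11.8 and 15.4 CPM in single-class ones, and the part of that RNA was not tested. Single barcodes held 92.3%, 96.3%, 98.04% and 55.7% of the control diet UMIs of Cd74, H2-Ab1, C1qa and Fcer1g, and 1 barcode held over 50% of the higher library's UMIs in 42 of the 236 genes. Highest were Ibsp, Nrg3, Gpc5, Mmp13, Krt9, Defb6, Pdgfd, Col8a1, Krtdap and H2ac24, of which Krt9, Defb6 and Krtdap belong to epidermis. Cell cycle genes were near the rest, with 1 of 36 G2/M genes higher and 0 lower and a median log2 ratio of -0.046 beside -0.051 over all genes.

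In single-class members 176 of 3382 genes were past 2-fold (5.2%), 102 higher (3.02%) and 74 lower (2.19%), and 32 of these were called the same way in all members. With 40 and 20 barcodes single cells weigh heavily: in 35 of the 176 genes 1 barcode held over 50% of the UMIs of the higher library. Ibsp, bone sialoprotein, had 804 UMIs in 1 SAR131675 barcode and none in control diet, and Mmp13 had 54 UMIs in the same number of barcodes. Prg4, lubricin of the joint lining, stood at 107 CPM (81.02 to 138) in SAR131675 and 10107.5 CPM (9690.4 to 10538) in control diet, a log2 ratio of -6.57 (-6.97 to -6.19), with 64.4% of the control diet UMIs in 1 barcode, and 0.47 (0.42 to 0.53) over all members, in the opposite direction. Of the 20 named genes, the 3 not held by 1 barcode were Gldn, a protein of nodes of Ranvier, at 101 CPM (76.2 to 132) against 9.15 CPM (1.11 to 33.04) with a log2 ratio of 3.47 (1.55 to 6.55), Gpc6, a glypican, with 2.10 (1.35 to 2.94), and Meg3, a long non-coding RNA, with 3.01 (1.39 to 5.33). The ratios of Gldn, Gpc6 and Meg3 were -0.015 (-0.074 to 0.043), -0.019 (-0.065 to 0.028) and 0.16 (0.094 to 0.23) in single-class non-cycling cells.

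Among the lower genes of single-class members were Htra4, a protease, and Clic5, a chloride channel family member, both of the synovial list like Prg4, with log2 ratios of -5.68 (-7.999 to -4.07) and -2.98 (-3.70 to -2.30), and Hbegf, an EGF receptor ligand, with -4.03 (-5.22 to -3.01). Single barcodes held 51.6%, 63.2% and 66.1% of the control diet UMIs of these 3. The same control diet barcode, of 15870 UMIs, held the most UMIs of Prg4, Rgs5, Zfp385b, Cp and Htra4, and the 10 named lower genes had their highest counts in 3 of the 20 barcodes. Rgs5 of mural cells had 64 UMIs in 1 control diet barcode and none in SAR131675. G2/M genes had 0 of 28 higher and 2 lower, with a median of -0.34, and extracellular matrix genes 4 of 35 higher and 0 lower, with a median of 0.21 beside 0.0085 over all genes, of which 3.02% were higher and 2.19% lower. In control diet 1 barcode held 37.9% of the G2/M list UMIs of the 20 single-class members, so the G2/M values rest in part on it. Contractile genes had 0 of 6 in either direction, with Acta2 at -0.44 (-0.76 to -0.11).

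LNR against sham gave the larger count over all members, 735 of 8442 genes (8.71%), 336 higher (3.98%) and 399 lower (4.73%). One barcode held over 50% of the higher library's UMIs in 32 of them. Centred on the median ratio of all genes, 0.12, the split was 211 higher and 478 lower. The lowest in LNR were the neutrophil granule genes Ngp and Camp and genes of the cornified epidermis, Klk7, Flg, Crct1, Hrnr, Wfdc12 and Lor, with Wfdc21 and Wfdc17, beside which the keratinocyte list had 7 of 11 genes lower. Highest were Mmp13, Ccl21a, Mmrn1, Mmp3, Inhba, Timp1, Il11, Il1rl1, Hba-a1 and Tnc. Ccl21a and Mmrn1, genes of lymphatic endothelium, had 252 and 53 UMIs in 5 and 3 LNR members, 61.5% and 67.9% of them in 1 barcode, and 1 and 0 in single-class ones. Extracellular matrix genes were higher in LNR for 18 of 39, with a median of 0.89. In single-class members that count was 2 of 35, with a median of 0.068, beside 2.22% of all genes higher there. The G2/M median was 0.63 over all members, with 6 of 41 genes higher and 0 lower, and -0.60 in single-class members, with 0 of 26 higher and 4 lower beside 1.37% of all genes lower. In sham 1 barcode held 21.6% of the single-class G2/M list UMIs.

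In single-class members 68 of 1893 genes were past 2-fold (3.59%), 42 higher (2.22%) and 26 lower (1.37%), 21 of them called the same way in all members, and 1 barcode held over 50% of the higher library's UMIs in 6. Spp1 and Ibsp of the osteoblast list and Mmp13 of the protease list were among those higher in LNR. Spp1, osteopontin, stood at 5419 CPM (5174 to 5672) against 1133 CPM (1007 to 1269.9) in sham, a log2 ratio of 2.26 (2.08 to 2.44), from 9 and 3 barcodes. Mmp13 stood at 3709.8 CPM (3507.5 to 3921) against 805 CPM (699.8 to 922), a log2 ratio of 2.20 (1.99 to 2.42) in 10 and 4 barcodes, 2.997 (2.86 to 3.14) over all members and 1.05 (0.96 to 1.14) in non-cycling cells. Inhba had 1.43 (1.05 to 1.84) in members and 0.78 (0.65 to 0.90) in non-cycling cells, and Il11 1.75 (1.05 to 2.51) and 0.56 (0.19 to 0.94).

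Ibsp had 406 UMIs in 10 LNR barcodes, 79.1% of them in 1, and none in sham, a log2 ratio of at least 6.70 against a floor of 3 UMIs. Ank and Enpp1, which control pyrophosphate outside cells, had 2.02 (1.03 to 3.16) and 1.91 (1.002 to 2.94), and Comp, a tendon and cartilage matrix protein, 3.46 (2.71 to 4.33). In single-class non-cycling cells Ank, Enpp1 and Comp had -0.12 (-0.29 to 0.041), -0.012 (-0.22 to 0.20) and -0.015 (-0.045 to 0.015). The other 2 of the 10 were the apolipoprotein genes Apod and Apoe, with 1.45 (1.05 to 1.87) and 1.67 (0.92 to 2.50). The 10 genes had their highest LNR counts in 9 of the 28 barcodes.

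The 10 genes ranked lowest in LNR included Igfbp2 and Ccn2. Igfbp2, an insulin-like growth factor binding protein, stood at 198 CPM (153 to 251) against 697 CPM (599 to 807), a log2 ratio of -1.82 (-2.25 to -1.41), and Ccn2, a target of TGF beta and mechanical signals, at 192 CPM (148 to 245) against 574 CPM (486 to 674), -1.58 (-2.02 to -1.15). Rgcc and Pi16 had -1.77 (-2.34 to -1.23) and -2.32 (-3.42 to -1.33). Saa3, an acute phase protein, and Ednrb, an endothelin receptor, had -3.03 (-4.10 to -2.11) and -2.47 (-3.52 to -1.55), with 66.7% and 56.9% of the sham UMIs in 1 barcode. Crispld2, Clic5 and the gene listed as D17H6S56E-5 had -1.94 (-2.83 to -1.12), -1.27 (-1.82 to -0.73) and -1.28 (-1.81 to -0.75). Prg4, ranked among the 10 by the interval's bound nearest 0, did not pass 2-fold, at -0.88 (-0.94 to -0.82), with 50.7% of the sham UMIs in 1 barcode and 0.38 (0.35 to 0.40) over all members, in the opposite direction. The gene listed as D17H6S56E-5 was itself higher in cycling cells, at 164, 123, 142 and 343 CPM in single-class members and 2.17, 1.62, 0.944 and 0.887 CPM in non-cycling cells. Tnfsf11 did not pass, at 0.58 (-0.17 to 1.38).

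**Figure D5:**
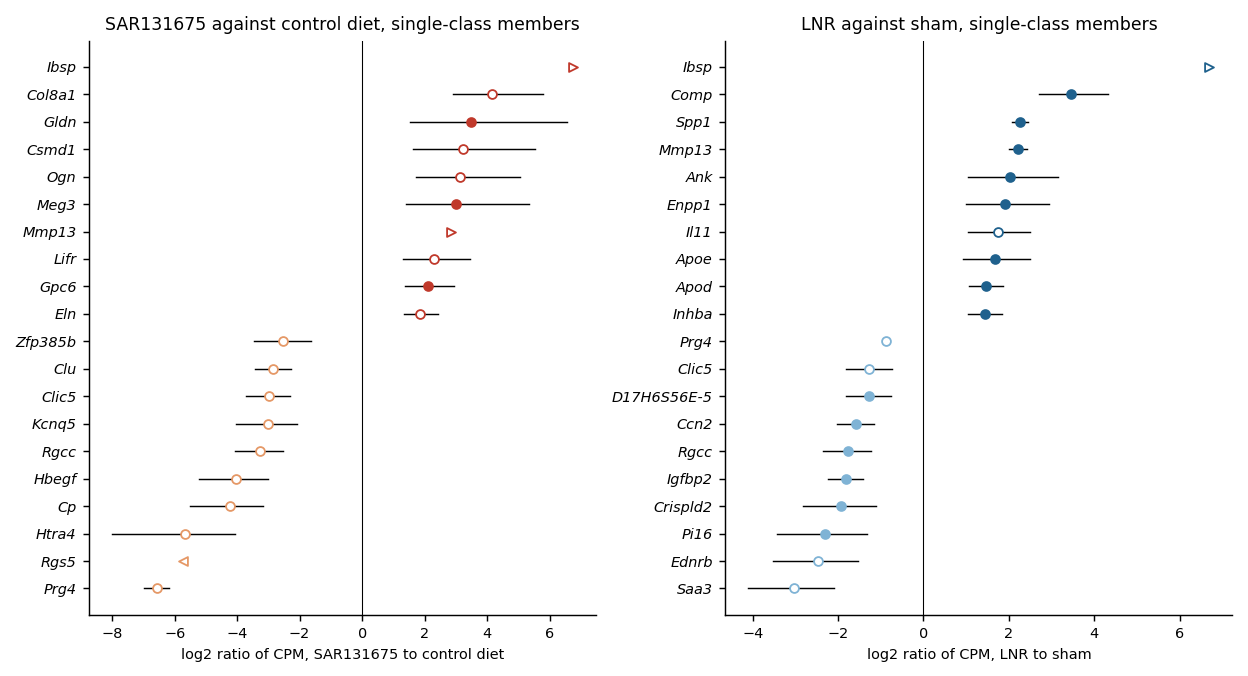
Log2 ratio of CPM in single-class members with its exact 95% interval (x axis) for the 20 genes named in each pair, SAR131675 against control diet (left) and LNR against sham (right). Colour gives the higher library, open symbols mark genes with over 50% of that library's UMIs in 1 barcode, and triangles mark bounds where the other library had 0 UMIs. On the left 17 of 20 symbols are open, and on the right 6.

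Few genes passed 2-fold in both pairs, and over all members more of them went opposite ways than the same way. Over all members 9 were higher and 8 lower in both treated libraries, and 35 went opposite ways. Beside these, 1.78% of all genes were higher and 1.87% lower in SAR131675, and 3.98% and 4.73% in LNR. In single-class members these shares were 3.02% and 2.19%, and 2.22% and 1.37%. The overlap that such shares alone would give was not computed, so the counts are a description. In single-class members the 2 higher were Ibsp and Mmp13 and the 4 lower were Gem, Rgcc, Pi16 and Clic5, and 1 gene, Comp, went opposite ways, at -1.19 (-1.53 to -0.85) and 3.46 (2.71 to 4.33), with 83.8% of the control diet UMIs in 1 barcode. For Ibsp and Mmp13 the SAR131675 value rests on 1 barcode. Rgcc, a regulator of cell cycle and complement response, had -3.28 (-4.09 to -2.53) and -1.77 (-2.34 to -1.23) in the 2 pairs and -0.15 (-0.21 to -0.093) and -0.058 (-0.10 to -0.014) in non-cycling cells, with 60.8% and 42.2% of the control libraries' UMIs in 1 barcode. Pi16 had -1.25 (-1.58 to -0.91) and -2.32 (-3.42 to -1.33), and over all members -0.49 (-0.71 to -0.27) and 0.84 (0.62 to 1.07).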

How the data were processed

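Digits were dissociated with collagenases and dispase, red cells were lysed, and libraries were made with the Single Cell 3′ v3 chemistry. The deposited values are unnormalized UMI counts of each barcode for 33696 genes in 4 libraries. Per the file headers, LNR and sham were counted with Cell Ranger 6.1.2 and SAR131675 and control diet with Cell Ranger 8.0.1, while the submitters' processing notes name Cell Ranger 6.1.2 and GRCm39, so levels were set side by side across experiments and compared within them. The promoter sequences are from another build and were used by gene symbol only. The processed matrices held both cell and keratin-rich barcodes, and no doublet caller was run.

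Counts were summed over the cells of a group and scaled to CPM. Python 3.11.15, numpy 2.4.6, scipy 1.17.1, pandas 2.3.3 and matplotlib 3.10.9 were used. Pair ratios were taken for genes with at least 50 UMIs over the pair and called past 2-fold with an exact 95% interval excluding 0. Cycling and non-cycling cells were compared for genes with at least 50 UMIs in members over all libraries, with 0.5 added to each sum. A level against 0 UMIs was bounded with a floor of 3 counts. Each group is 1 library, so there is no replicate and no test, and intervals and floors cover counting error only, since molecules of 1 cell are not independent. The scripts were tested on simulated data.

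Named genes were the 10 highest and 10 lowest of each comparison (by the library with the smallest change, or by the interval bound nearest 0), the genes past 2-fold in both pairs, and from each of 26 gene lists the 3 members with most UMIs and those past 2-fold in a pair. Other list members given as examples were picked after their values were seen. The members, lists and limits were chosen with earlier results of these data known. Alternatives changed the depth, the limits, the count minimum, the scaling and the reference cells.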

Additional observations from a re-analysis of the deposited data

How the results depend on the processing

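The SAR131675 to control diet share ratio stayed positive in all 11 alternatives that gave a value. With no barcode holding 2 genes of another class there were 0 SAR131675 members, so that ratio, that pair's gene count and the count over 4 libraries could not be had. The LNR to sham ratio of -1.19 moved to -0.54 with thinned cells, -0.52 with 1 cell cycle gene, -0.095 with a keratin limit of 0.2% and 0.066 without barcodes holding 2 genes of another class. With limits added after the data were seen it was -0.057 for single-class barcodes, -0.18 when these were thinned, 0.18 without upper limits and -0.48 without barcodes of 2 or more other classes. The removed barcodes are the construction of these settings, and no other cause was tested. Genes past 2-fold for SAR131675 against control diet, 236, numbered 542 with 20 UMIs, 793 with no minimum, 33 after thinning and 420 with no upper limit. For LNR against sham, 735, they numbered 1118, 1314 and 148 under the first 3, 68 in single-class members and 42 without barcodes holding 2 genes of another class. Genes higher in cycling cells, 531, numbered 2411 with no minimum, 160 after thinning and 247 in single-class cells, and genes lower, 108, numbered 192, 27 and 48. Leaving out 1 library gave 449 to 596 higher and 99 to 186 lower, with 164 lower without SAR131675 and 186 without control diet. The S phase to G2/M ratio moved to -2.15 in control diet and -1.83 in sham in single-class members. Leaving out, after the data were seen, the barcode with most S phase or most G2/M UMIs gave -1.64 or -1.41 in SAR131675, -1.73 or -1.20 in control diet and -1.17 or -1.08 in sham over all members. In single-class members it gave -1.63 or -1.23, -2.99 or -1.56, -0.86 or -0.72 and -2.02 or -1.52 in the 4 libraries. Fewer UMIs after thinning and fewer cells in the single-class set limit what these counts can show. No paired analysis was possible because each condition has 1 library, so the LNR and sham limbs, which came from the same animals, give a single difference with no spread.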

Other observations

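Red cell RNA was unevenly spread between cycling and other mesenchymal cells. The erythroid list, haemoglobin genes and Alas2, summed to 60.7, 114, 29.5 and 3.85 CPM in single-class members and 773, 879.8, 1031 and 256 CPM in single-class non-cycling cells, lower in members of all 4 libraries. Over all members it summed to 378, 579, 1128 and 394 CPM beside 680.04, 806, 921 and 203 CPM in all non-cycling mesenchymal cells, higher in members of LNR and sham. The non-cycling sham value lay below the other 3.

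In the signals to lymphatic vessels, osteoclasts and leukocytes, 2 of 6 genes compared were higher in single-class LNR members than in sham and 0 lower, beside 2.22% and 1.37% of all genes. Over all members 7 of 15 were higher and 1 lower, beside 3.98% and 4.73%. Counts in so short a list are a description of it. Il6, an inflammatory cytokine, stood at 0, 22.9, 59.03 and 30.8 CPM in single-class members and Ccl2, a monocyte chemokine, at 20.2, 22.9, 224 and 112 CPM, with 20 and 8 UMIs of Il6 in LNR and sham.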
